A study of Mus musculus with 2 samples.

Results

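Choroid plexus epithelium was followed in single-nucleus RNA sequencing of the mouse hippocampus by its own transcripts. A nucleus was taken as choroid plexus when Tmem72, Clic6 and Otx2os1 together held 2 or more unique molecular identifiers (UMIs, counts of single captured RNA molecules), and the 7 genes Tmem72, Clic6, Otx2os1, Htr2c, Col8a1, Spag16 and Dnah6 together held 6 or more. The members were thus chosen by their UMI counts of these 7 genes. The rule found 118 of 39861 barcodes, 62 of 20265 in the AAV-STOP library and 56 of 19596 in the AAV-TAU library. The levels of these 7 genes describe the choice and are no finding. Ttr, the most abundant plexus transcript, was kept out of the rule because its RNA is also found in barcodes of other cell types.

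The mice were C57BL/6J, 6 weeks old, and all had received an adeno-associated virus (AAV) into the cerebral ventricles on both sides at postnatal day 0. The AAV-STOP vector encodes human MAPT interrupted by a premature stop codon, which gives RNA without tau protein, and the AAV-TAU vector encodes the wild-type 2N4R form of human tau in full length. The hippocampi of 3 mice were pooled into 1 library per group, so the groups have no replicates: no test was possible, and all intervals below are exact 95% intervals that cover counting error only. The promoter of the vector is not given in the sources used here, and the counted genes are mouse genes, so vector RNA in plexus nuclei was not measured. Differences between these libraries cannot be told apart from differences in dissection, pooling or library preparation.

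The choroid plexus is a sheet of ciliated epithelium folded into each brain ventricle. It secretes cerebrospinal fluid by moving sodium, chloride, bicarbonate and water across its cells, releases proteins such as transthyretin into that fluid, and closes the blood-fluid barrier with tight junctions. The ependyma, the ciliated lining of the ventricle wall, adjoins it and shares the motile cilium genes but not the secretory ones. Both border the space into which the vectors were injected.

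The share of members did not differ between the libraries beyond counting error. They made up 0.306% of the AAV-STOP barcodes (0.235 to 0.392) and 0.286% of the AAV-TAU barcodes (0.216 to 0.371), a ratio of AAV-TAU to AAV-STOP of 0.934 (0.639 to 1.36). Limited to nuclei without a UMI of Rbfox3, which encodes the neuronal nuclear protein NeuN, the counts were 33 and 41 and the ratio 1.28 (0.793 to 2.10). When every barcode was thinned to 1500 UMIs, 24 AAV-STOP and 35 AAV-TAU nuclei met the rule, a ratio of 1.51 (0.872 to 2.65). All 3 intervals include 1. The libraries had medians of 5750 and 5119 UMIs per barcode. They shared 116 barcode sequences, none of them a member.

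The motile cilium genes, which the ependyma shares, give a view of regulatory sequence that is not particular to this cell type. RFX factors, which switch on ciliary genes, bind sites built from the letters GTTGCC, so the 250 bases before each RefSeq gene start (GRCm38.p6) were searched for GTTGCC on both strands. The letters stood in 11 of 44 windows (25%) of the motile cilium list outside the rule, against 3425 of 32851 windows (10.4%) of all genes and 9 of 80 windows (11.2%) of the secreted, ion transport and solute carrier lists. Windows were found for 42 of 50 cilium genes. Letters of an OTX site, TAATCC, stood in 5 of the 44 cilium windows (11.4%) and 6.25% of all windows, and letters of a forkhead site, GTAAACA, in 3 (6.82%) and 3.17%. Of 216 windows of the genes outside the rule that stood at 4 times or more the other barcodes, 31 (14.4%) held GTTGCC. The OTX letters stood in 20 (9.26%) of them and the forkhead letters in 8 (3.70%). Of 5 windows of the rule genes, 1 held GTTGCC and none the OTX or forkhead letters. These are matches of letters and no measurement of binding. The stretches of 80 bases below show the 4 cilium genes of highest level in the members that hold these letters and stood at 4 times or more the other barcodes in both libraries. GTTGCC and its reverse complement are in capitals, and each stretch is read 5′ to 3′ on the strand of the gene.
Spag16 (chr1:69826822-69826901, plus strand): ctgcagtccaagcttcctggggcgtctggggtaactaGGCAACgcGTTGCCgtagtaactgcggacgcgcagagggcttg
Cfap44 (chr16:44394633-44394712, plus strand): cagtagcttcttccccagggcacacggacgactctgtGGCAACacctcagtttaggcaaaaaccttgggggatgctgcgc
Dnah7b (chr1:46066653-46066732, plus strand): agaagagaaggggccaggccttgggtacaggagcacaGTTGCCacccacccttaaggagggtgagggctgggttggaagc
Tekt1 (chr11:72361883-72361962, minus strand): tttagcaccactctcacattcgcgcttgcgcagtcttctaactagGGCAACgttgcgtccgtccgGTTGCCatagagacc
In Spag16, which encodes a protein of the central pair of the axoneme, the letters occur in both orientations around a 2-base gap. In Tekt1, a gene of tektin filaments, both orientations lie within the last 35 bases before the start. Cfap44, of the tether of the inner dynein arm, and Dnah7b, an inner arm heavy chain, carry single copies in the stretches shown.

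The 7 genes of the rule were measured as follows, in CPM, the UMIs of a gene per 1000000 UMIs summed over the nuclei of a set. Htr2c, the serotonin 2C receptor and the most abundant of them, stood at 1722 CPM in the AAV-STOP members and 5456 CPM in the AAV-TAU members, against 79.5 and 77.1 CPM in all other barcodes. Otx2os1, a noncoding transcript on chromosome 14 (48668708 to 48870683, plus strand, GRCm38), stood at 321 and 915 CPM against 0.517 and 1.12 CPM. Its start overlaps Otx2 on the other strand (48657677 to 48673819), and whether reads were assigned by strand is not given in the sources used here, so the pair may share reads. Tmem72, a membrane protein gene on chromosome 6, stood at 164 and 559 CPM, and Clic6, a chloride channel family gene on chromosome 16, at 173 and 350 CPM. Col8a1, a short-chain collagen, stood at 229 and 732 CPM. The axonemal genes Spag16 and Dnah6 stood at 223 and 609 CPM and at 92.2 and 256 CPM. Each of the 7 was thus higher in the AAV-TAU sum, a pattern that depends on the nuclei summed and is taken up below.

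At the edge of the rule the nuclei were thinly marked. With exactly 2 UMIs of the first 3 genes, 12 AAV-STOP nuclei had a median of 9.09 rule-gene UMIs per 10000, and 11 of them held Rbfox3. In AAV-TAU 4 nuclei lay there, with a median of 11.1, and 1 held Rbfox3. Just outside, with 1 UMI of the 3 genes and 6 or more of the 7, were 17 AAV-STOP nuclei (16 with Rbfox3) and 10 AAV-TAU nuclei (7 with Rbfox3). A further 2 and 7 nuclei fell short by 1 UMI of the 7 genes.

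The members of the AAV-STOP library held much neuronal RNA, so sums are given below with and without the nuclei that carry it. Their UMIs ran from 2006 to 73252 with a median of 5922.5, and those of the AAV-TAU members from 1779 to 24736 with a median of 4179.5. In AAV-STOP 10 nuclei of 20000 or more UMIs held 57.4% of all member UMIs, and in AAV-TAU 1 such nucleus held 8.23%. Of all barcodes, 0.977% of AAV-STOP and 0.454% of AAV-TAU were that deep. Rbfox3 was present in 29 AAV-STOP members, which held 77.4% of the member UMIs, and in 15 AAV-TAU members, which held 42.8%. The UMIs of 10 neuron markers, Rbfox3 itself among them, were taken per 10000. Their medians were 17.2 without and 115 with Rbfox3 in AAV-STOP, and 22.4 and 62.8 in AAV-TAU. The 7 rule genes ran the other way, with medians of 115 and 9.32 per 10000 in AAV-STOP and of 138 and 41.6 in AAV-TAU.

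**Figure D1:**
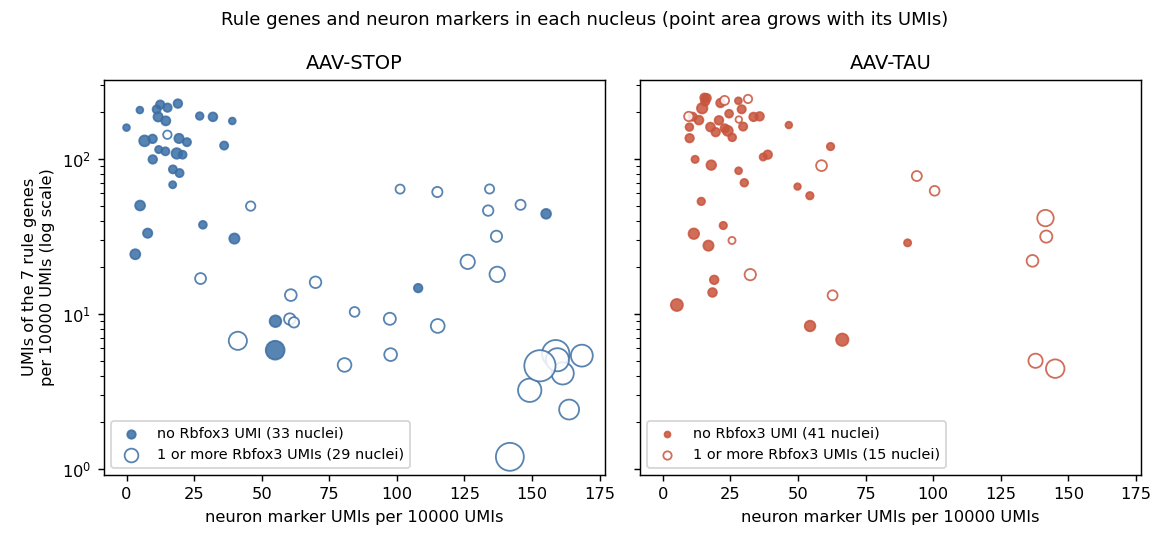
Each point is 1 member nucleus: UMIs of 10 neuron markers per 10000 UMIs (x axis) against UMIs of the 7 rule genes per 10000 UMIs (y axis, log scale), for AAV-STOP (left) and AAV-TAU (right), filled without and open with Rbfox3 UMIs, point area growing with the UMIs of the nucleus. The deepest AAV-STOP nuclei lie at the lower right, with many neuron marker UMIs and under 10 rule-gene UMIs per 10000.

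Across nuclei the neuron marker rate and the rule-gene rate were inversely related, with a Spearman rho of -0.727 over 62 AAV-STOP nuclei and -0.392 over 56 AAV-TAU nuclei. The 2 rates share the same total in each nucleus, so part of the relation is arithmetic. At an equal depth of 1500 UMIs, 25.8% of AAV-STOP members (15.5 to 38.5) and 8.93% of AAV-TAU members (2.96 to 19.6) held an Rbfox3 UMI. At full depth the shares were 46.8% and 26.8%, at median depths of 5922.5 and 4179.5 UMIs. Oligodendrocytes, which should lack Rbfox3, gave 14.6% and 14.0% at 1500 UMIs, fibroblasts 14.7% and 20.1%, endothelium 20.6% and 20.2%, microglia 29.5% and 19.3% and astrocytes 48.2% and 42.7%. The share in the members thus lay within the range of these 5 marker-sum sets in AAV-STOP. In AAV-TAU it lay below that range, but its interval includes the 14.0% of oligodendrocytes. The astrocyte set, the top of the range, held Rbfox3 in 85.1% (AAV-STOP) and 77.3% (AAV-TAU) at full depth. Of all barcodes, 72.8% and 65.0% did, so this set is not shown to be free of neuronal RNA. The source of the Rbfox3 UMIs was not tested. At full depth oligodendrocytes gave 33.2% and 28.4%, at medians of 3146 and 2805 UMIs.

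Marker sums of other cell types, the UMI minimums by which barcodes of those types were counted, were also met by some members, and a deeper nucleus reaches such a sum more easily. The marker sum of oligodendrocytes was met by 13 of 62 AAV-STOP and 2 of 56 AAV-TAU members, and that of astrocytes by 17 and 3. Summed over the AAV-STOP members the oligodendrocyte markers stood at 619 CPM, against 592 CPM in all other barcodes, and the astrocyte markers at 439 against 428 CPM. In AAV-TAU they stood at 230 against 624 CPM and at 233 against 410 CPM. The microglial sum was met by 2 and 1 and the fibroblast sum by 1 and 0 (0 of 56 allows up to 5.36% by the limit of 3 counts). The endothelial sum was met by 4 and 6. It contains Mecom, a transcription factor gene that stood at 310 CPM (AAV-STOP) and 565 CPM (AAV-TAU) in Rbfox3-free members. The 5 endothelial markers together stood there at 334 and 803 CPM, so Mecom is only a part. Cldn5, the endothelial tight junction gene, was at 0 in all members. In AAV-TAU 2 Rbfox3-free members, both marked as doublets, held 27 and 16 endothelial UMIs. Whether these members hold RNA of endothelial cells was not tested. A doublet caller marked 12 AAV-STOP members, 10 of them with Rbfox3, and 9 AAV-TAU members, 5 with Rbfox3. It marked 10.8% and 10.1% of all barcodes.

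Markers outside the rule matched the choroid plexus part of the label. Of 12 plexus marker genes outside the rule with 30 or more UMIs in the members, 11 stood at 4 times or more the CPM of all other barcodes in both libraries, against 3.2% of the 6467 genes with that many UMIs. The comparison follows from choosing nuclei by co-expressed genes and is given without a test. Otx2, a homeobox factor required to form this epithelium, stood at 82.6 CPM (AAV-STOP) and 173 CPM (AAV-TAU) against 0.154 and 0.440 CPM elsewhere. Folr1, the receptor that carries folate into the fluid, stood at 57.8 and 173 CPM against 0.178 and 0.660 CPM. Kcne2, a potassium channel subunit of the apical membrane, stood at 30.3 and 73.2 CPM against 0.154 and 0.284 CPM. Cldn2, the claudin of leaky epithelia, stood at 26.2 and 66.6 CPM against 0.116 and 0.330 CPM. Slc4a5, a sodium bicarbonate cotransporter, stood at 61.9 and 196 CPM against 0.278 and 0.174 CPM. All 5 were at least 196 times the level of the other barcodes in each library, but Cldn2 is not on the list of 12. The genes on that list had a median ratio of 37.7, taking the lower library of each, so these 5 are not typical. Car12 was the gene of the 12 that did not reach 4 times in both libraries.

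The defining ependymal genes had few UMIs. Their 8 markers summed to 71.6 CPM in the AAV-STOP members and 73.2 CPM in the AAV-TAU members, against 5.64 and 8.42 CPM in all other barcodes. Ccdc153 had 4 UMIs in the AAV-STOP members and 0 in the AAV-TAU members, Tmem212 had 9 and 0, Rarres2 had 6 and 0, and Foxj1, the master regulator of motile cilia, had 11 and 11. No ependymal marker reached 30 UMIs. Of the members 45 AAV-STOP and 39 AAV-TAU nuclei held no UMI of the 8 ependymal markers, and 4 AAV-STOP nuclei and 1 AAV-TAU nucleus held 3 or more. One of the 4, with 3569 UMIs, held 9 ependymal UMIs, 29 rule-gene UMIs and no Ttr UMI. Another, with 23800 UMIs, held 18 ependymal, 89 oligodendrocyte marker and 382 Ttr UMIs. A further nucleus of the 4, with 25646 UMIs, held 7 ependymal, 95 oligodendrocyte marker and 348 Ttr UMIs. The marks of choroid plexus were weak in a share of the members. In AAV-STOP 23 of 62 nuclei, 20 of them with Rbfox3, had under 20 rule-gene UMIs per 10000, and their medians per 10000 were 97.7 for the neuron markers, 5.73 for the plexus markers without Ttr and Trpm3, and 1.72 for Ttr. In the other 39 the median of these plexus markers was 93.2. In AAV-TAU 9 of 56 nuclei, 4 of them with Rbfox3, lay under 20. The nuclei are therefore choroid plexus by the rule, and this name was not settled for each nucleus.

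By count of plexus-enriched genes, the motile cilium, secreted, ion transport and solute carrier lists led the lists by role. They hold only a part of the 200 such genes outside the rule. In the secreted list 9 of 14 genes with 30 or more UMIs stood at 4 times or more the other barcodes in both libraries, read against 3.2% of all genes. In the motile cilium list it was 19 of 28 outside the rule, in ion transport 9 of 23, in solute carriers 7 of 16, in junctions 4 of 15, in roof plate factors 3 of 7 and in receptors 3 of 18. None of 9 heat shock, 24 respiratory chain and 10 endoplasmic reticulum genes did so. The levels below are for members without Rbfox3 UMIs, where the libraries had 164426 and 171805 UMIs and medians of 4079 and 3930 UMIs per nucleus.

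Secreted products led the profile. Ttr, the carrier of thyroxine, stood at 21864 CPM in AAV-STOP and 20878 CPM in AAV-TAU. Enpp2, the secreted enzyme autotaxin, stood at 7249 and 8457 CPM. Kl, the klotho cofactor of fibroblast growth factor receptors that is shed into the fluid, stood at 632.5 and 588 CPM. Igf2, an insulin-like growth factor supplied to the fluid, stood at 274 and 192 CPM, and Sostdc1, a secreted inhibitor of bone morphogenetic protein and Wnt signals, at 128 and 140 CPM. Prlr, the prolactin receptor, stood at 693 and 600 CPM.

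The machinery of fluid secretion was measured along its path, and part of it is not particular to the members. The ion transport list had a median ratio of members to other barcodes of 1.74, taking the lower library of each gene. Over all members, Slc12a2, Slc4a10, Atp1b1 and Car12 did not reach 4 times the other barcodes in both libraries. Trpm3, a cation channel gene, was the most abundant transporter gene at 13599 and 14691 CPM. Stk39, the kinase that activates the sodium potassium chloride cotransporter, stood at 2487 and 2759 CPM, and the cotransporter itself, Slc12a2, at 474 and 460 CPM. Slc4a10, the basolateral sodium-dependent bicarbonate transporter, stood at 1259 and 1688 CPM and Slc4a5, its apical relative, at 219 and 279 CPM. Atp1b1, a subunit of the sodium pump, stood at 651 and 914 CPM. The potassium channel gene Kcnj13 stood at 328 and 471 CPM and the carbonic anhydrase gene Car12 at 195 and 407 CPM. Aqp1, the water channel of the apical membrane, had only 6 UMIs in all AAV-STOP and 9 in all AAV-TAU members, so its level cannot be compared between libraries at this depth.

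Carriers of nutrients and cilium genes followed. Over all members, Slc23a2 and Cfap69 did not reach 4 times the other barcodes in both libraries. Slc6a20a, a proline carrier, stood at 249 and 349 CPM, Slc23a2, the vitamin C transporter, at 414 and 442 CPM and Folr1 at 189 and 239 CPM. Of the cilium genes Cfap69 stood at 474 and 454 CPM, Cfap44 at 401 and 506 CPM and Spef2 at 292 and 390 CPM. Dnah9, an outer dynein arm heavy chain, stood at 237 and 210 CPM against 118 and 110 CPM in the other barcodes, so it was not specific to the members. Gmnc, which starts the multiciliated cell programme, stood at 705 and 1071 CPM, and Lmx1a, a roof plate homeobox factor, at 219 and 227 CPM.

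**Figure D2:**
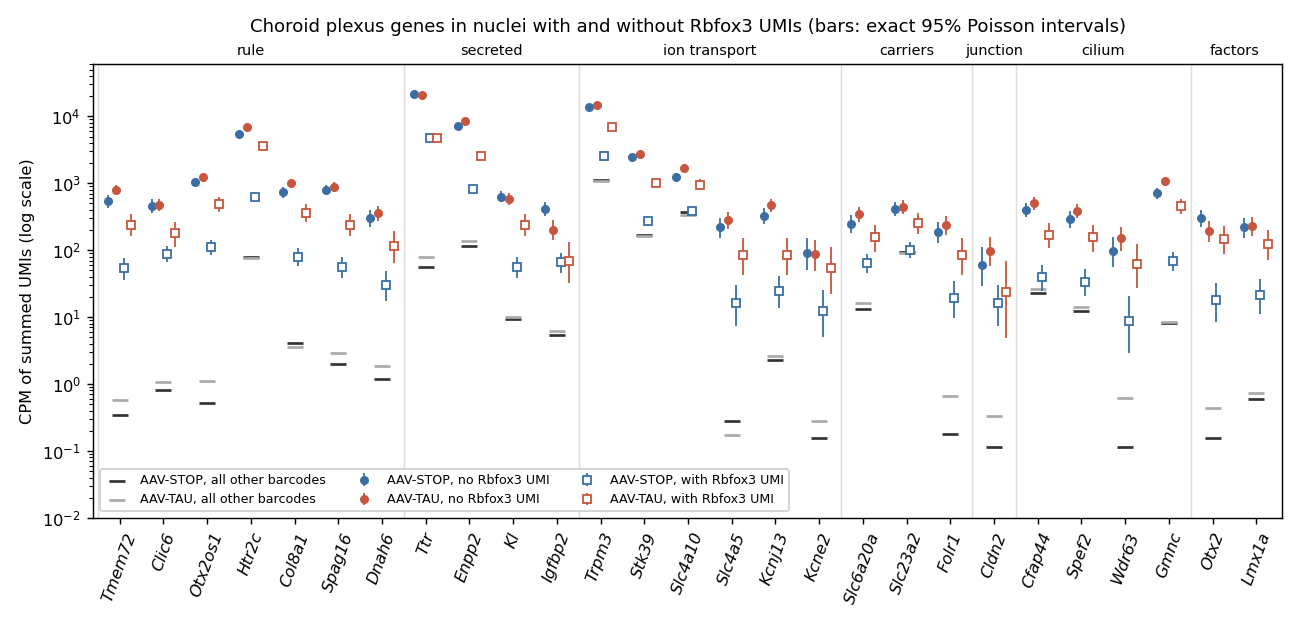
CPM of summed UMIs (y axis, log scale) for rule genes and role genes (x axis) in 4 sets of members, filled circles without and open squares with Rbfox3 UMIs, blue AAV-STOP and red AAV-TAU, with exact 95% Poisson intervals, and dashes for all other barcodes. Members without Rbfox3 have similar levels in both libraries for many of the genes, but Igfbp2 and Otx2 stand lower and Gmnc higher in AAV-TAU. The AAV-STOP members with Rbfox3 stand lowest of the 4 sets for most genes, for example 53.4 CPM for Tmem72.

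Nuclei with and without Rbfox3 UMIs differed in the same direction in both libraries. With Rbfox3, 524 of 6467 genes (8.1%) were 2-fold or more higher in both libraries and 554 (8.57%) were 2-fold or more lower. Of the 200 genes outside the rule that stood at 4 times or more the other barcodes, 150 were lower with Rbfox3 and 0 higher. Of all barcodes, 72.8% (AAV-STOP) and 65.0% (AAV-TAU) held Rbfox3. The 200 genes were chosen in these data for low levels in such barcodes, so this direction is no independent evidence. In the motile cilium list outside the rule 19 of 28 genes were lower, in the secreted list 12 of 14, in ion transport 11 of 23, and in the respiratory chain 12 of 24, with none higher in these 4 lists. Of 10 neuron markers, Rbfox3 itself among them, 4 were higher and none lower. The split uses Rbfox3 itself, and a deeper barcode has more chance of an Rbfox3 UMI: median depths were 9652 with and 4079 without in AAV-STOP, and 6174 and 3930 in AAV-TAU. At 1500 UMIs per nucleus 86 of 1117 genes (7.70%) were higher and 133 (11.9%) lower.

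The genes that marked each side are as follows. Highest with Rbfox3 were neuronal genes such as Kcnip4, a potassium channel interacting protein, at 6512 against 742 CPM in AAV-STOP and 4339 against 198 CPM in AAV-TAU. Dab1, of the reelin pathway, stood at 2319 against 286 CPM and at 1664 against 81.5 CPM. Kcnc2, a fast potassium channel, stood at 253 against 24.3 CPM and at 241 against 5.82 CPM. Cntn5, a neuronal adhesion gene, stood at 799 against 73.0 CPM and at 708 against 46.6 CPM. In all other barcodes of the AAV-STOP library Kcnip4 stood at 6450 CPM and Cntn5 at 764.5 CPM, close to the members with Rbfox3. Lowest with Rbfox3 were plexus genes. Ak9, an adenylate kinase, stood at 12.4 against 255 CPM in AAV-STOP and 23.3 against 157 CPM in AAV-TAU. Col4a3, a basement membrane collagen, stood at 17.8 against 280 CPM and at 31.1 against 180 CPM. Fap, a membrane protease, stood at 17.8 against 401 CPM and at 101 against 384 CPM.

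For 3 plexus genes outside the rule, chosen after their values were seen, the split was wider in AAV-STOP. Enpp2 stood at 822 CPM with and 7249 CPM without Rbfox3 there, and at 2527 and 8457 CPM in AAV-TAU. Kl stood at 56.9 and 632.5 CPM, and at 241 and 588 CPM. Otx2 stood at 17.8 and 304 CPM, and at 148 and 192 CPM. Ttr, at 4810 and 4790 CPM with Rbfox3 against 21864 and 20878 CPM without, had a split of like size in both. Endogenous Mapt, the mouse tau gene, stood at 315 with and 158 CPM without Rbfox3 in AAV-STOP, and at 257 and 105 CPM in AAV-TAU, against 322 and 336 CPM in the other barcodes.

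In the sums over all members, plexus genes were higher, and oligodendrocyte and neuron markers mostly lower, in the AAV-TAU library. Of the 6467 genes, 432 (6.68%) were 2-fold or more higher in AAV-TAU and 315 (4.87%) were 2-fold or more lower. Under median-of-ratios scaling the split was 340 higher and 436 lower, and scaled by plexus genes 9 higher and 3158 lower. Of the 200 plexus-enriched genes outside the rule 197 were higher, 138 of them by 2-fold or more, with a median log2 ratio of 1.19 beside 0.10 over all genes. The motile cilium list outside the rule had a median of 1.15 with 17 of 28 genes at 2-fold or more, ion transport 0.96 with 11 of 23 and the secreted list 0.73 with 5 of 14. The oligodendrocyte markers had a median of -1.45 with 4 of 5 genes at 2-fold or more lower, and the neuron markers -0.41 with 1 of 10. These ratios are log2((AAV-TAU CPM + 5)/(AAV-STOP CPM + 5)). The share of member UMIs in nuclei with Rbfox3 also differed, at 77.4% in AAV-STOP and 42.8% in AAV-TAU. Whether the ratios are linked to that share was not tested.

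Among members without Rbfox3 the plexus-enriched genes and the role lists had medians nearer to 0. Of 2638 genes with 30 or more UMIs there, 82 (3.11%) were 2-fold or more higher in AAV-TAU and 133 (5.04%) lower. Of 155 plexus-enriched genes 7 were higher and 3 lower by 2-fold, and their median log2 ratio was 0.05, beside 0.03 over all genes. The medians were -0.10 for the secreted list (13 genes), 0.19 for ion transport (21), 0.33 for solute carriers (11), 0.14 for junctions (13), -0.20 for receptors (15) and -0.03 for the motile cilium (22), rule genes left out. Of the 11 solute carriers 10 were higher, 1 of them by 2-fold. The oligodendrocyte markers did not come nearer: their median was -2.12, with 4 of 4 genes lower and 3 of them by 2-fold. The 6 neuron markers with enough UMIs had a median of 0.14.

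A single AAV-STOP nucleus weighed on these medians. It was marked as a doublet and held 25646 UMIs, with 5.85 rule-gene UMIs per 10000. Of its UMIs, 95 were from oligodendrocyte markers and 141 from neuron markers, though none from Rbfox3. Without it, 32 AAV-STOP and 41 AAV-TAU nuclei remained, and the medians were -0.11 for the plexus-enriched genes (151), -0.18 for the motile cilium (20), 0.07 for ion transport, 0.09 for solute carriers with 6 of 11 higher, and 0.01 over all genes. Of 2397 genes 64 (2.67%) were then higher and 83 (3.46%) lower by 2-fold. The median of the plexus-enriched genes thus changed sign with 1 nucleus. Oligodendrocyte markers summed to 949 CPM in AAV-STOP with that nucleus and 439.5 CPM without it, against 244 CPM in AAV-TAU.

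**Figure D3:**
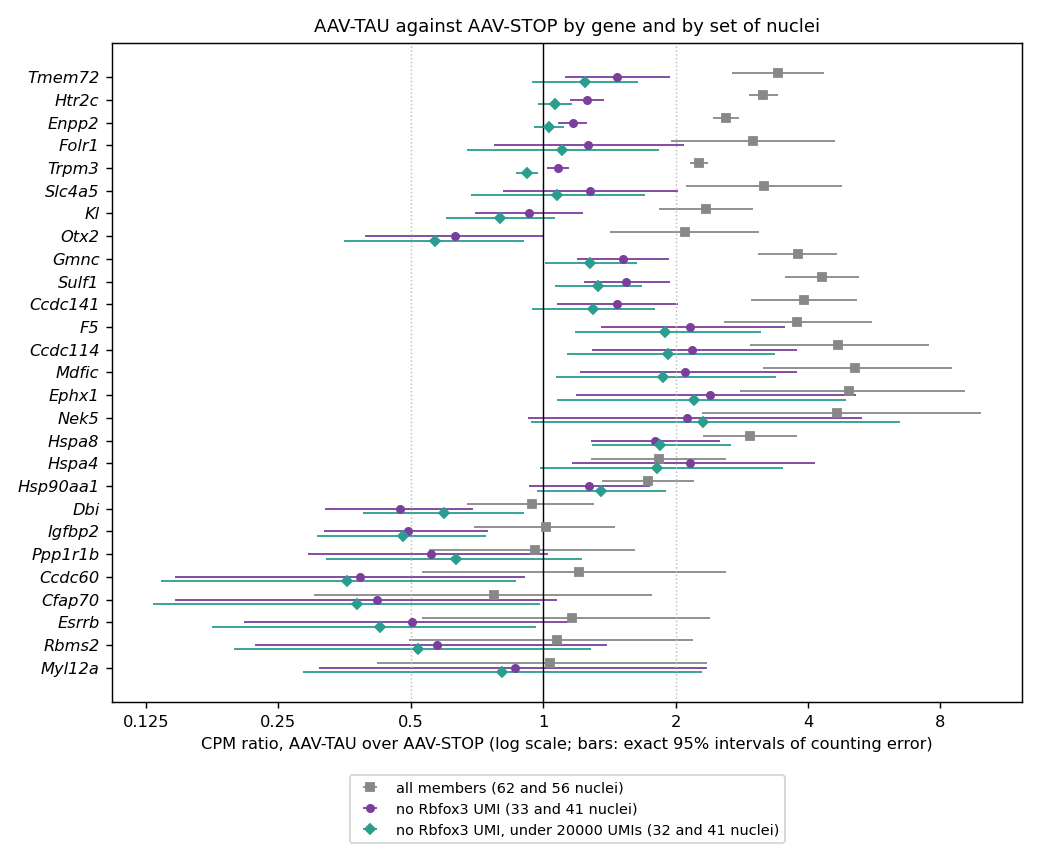
Ratio of CPM, AAV-TAU over AAV-STOP (x axis, log scale), by gene (y axis) for all members (grey squares), members without Rbfox3 UMIs (purple circles) and those also under 20000 UMIs (green diamonds), with exact 95% intervals of counting error and dotted lines at 2-fold. The ratio of Htr2c is 3.17 over all members, 1.26 without Rbfox3 and 1.06 without the deep nucleus as well, while Dbi and Igfbp2 are near 1 over all members and under 1 in both other sets.

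Of the plexus-enriched genes with the highest ratios over all members, F5, coagulation factor V, stood at 63.3 CPM in AAV-STOP and 240 CPM in AAV-TAU. Without Rbfox3 it stood at 164 and 355 CPM, a ratio of 2.16 (1.35 to 3.54), and of 1.89 (1.18 to 3.12) without the deep nucleus. Sulf1, a sulfatase that trims heparan sulfate, stood at 791 and 1222 CPM without Rbfox3, a ratio of 1.55 (1.24 to 1.94), then 1.34 (1.07 to 1.68). Gmnc had a ratio of 1.52 (1.20 to 1.93), then 1.28 (1.01 to 1.63). Ccdc114, of the docking complex of outer dynein arms, stood at 134 and 291 CPM, a ratio of 2.17 (1.29 to 3.77), then 1.92 (1.13 to 3.37). Mdfic stood at 122 and 256 CPM and Ephx1, an epoxide hydrolase that detoxifies reactive compounds, at 73.0 and 175 CPM. Ccdc141 (420 and 617 CPM) and Nek5 (54.7 and 116 CPM) complete the 8 genes. All 8 were higher in AAV-TAU in the 3 sets of nuclei, but they were chosen for the ratio over all members, so the direction in sets inside it is no independent evidence.

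The plexus-enriched genes with the lowest ratios over all members had log2 ratios from -0.32 to 0.24 there and lower ones, all under 0, without Rbfox3. Igfbp2, a binding protein for insulin-like growth factors secreted into the fluid, stood at 145 and 147 CPM over all members. Without Rbfox3 it stood at 414 CPM in AAV-STOP and 204 CPM in AAV-TAU, a ratio of 0.493 (0.318 to 0.751), and of 0.479 (0.306 to 0.740) without the deep nucleus. Dbi, the acyl-CoA binding protein, stood at 517 and 244 CPM without Rbfox3, a ratio of 0.473 (0.319 to 0.692), then 0.595 (0.390 to 0.902). Ccdc60 stood at 122 and 46.6 CPM, Cfap70 at 97.3 and 40.7 CPM, Esrrb, an orphan nuclear receptor, at 116 and 58.2 CPM, and Ppp1r1b, an inhibitor of protein phosphatase, at 188 and 105 CPM. Rbms2 (91.2 and 52.4 CPM) and Myl12a (60.8 and 52.4 CPM) complete the 8. These 8 were also chosen for the ratio over all members, so the direction in sets inside it is no independent evidence. Otx2 changed sides: it was 82.6 and 173 CPM over all members and 304 and 192 CPM without Rbfox3, a ratio of 0.632 (0.394 to 1.00).

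Chaperone genes of the heat shock list had higher levels in the AAV-TAU members and in the other AAV-TAU barcodes alike. Over all members the 9 genes had a median log2 ratio of 0.78, and all 9 were higher, 3 of them by 2-fold, beside 6.68% of all genes. Without Rbfox3 the median was 0.61, with 7 of 8 higher and 3 by 2-fold, beside 3.11% of all genes, and 0.63 without the deep nucleus. Hspa8, the constitutive HSC70 chaperone, stood at 341 CPM in AAV-STOP and 611 CPM in AAV-TAU, a ratio of 1.79 (1.29 to 2.53). Hspa4, a nucleotide exchange factor of HSP70, stood at 97.3 and 210 CPM, Hsph1 at 54.7 and 157 CPM and Hspd1, the mitochondrial chaperonin, at 60.8 and 163 CPM. The stress-inducible Hspa1a had 3 AAV-STOP and 2 AAV-TAU UMIs in the members. In all other barcodes Hspa8 stood at 196 CPM in AAV-STOP and 309.5 CPM in AAV-TAU, Hsp90ab1 at 329 and 519 CPM and Hsp90aa1 at 163 and 264 CPM, so nothing particular to the plexus is shown. Scaled by plexus genes instead of total UMIs, the list's median over all members was -0.37. This scaling lowers the log2 ratios of all genes by a common shift of 1.17, so that sign says nothing particular to chaperones.

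Other responses were little measured. Of 26 inflammation and interferon genes 3 had 30 or more UMIs in the members, and 9 were at 0 in both libraries. Vcam1, an adhesion molecule for leukocytes, stood at 79.1 and 87.3 CPM without Rbfox3, and Bst2, an interferon-induced membrane protein, at 30.4 and 52.4 CPM (ratio interval 0.519 to 6.54). The 8 endoplasmic reticulum genes had a median log2 ratio of -0.01 without Rbfox3, and the 23 respiratory chain genes 0.00.

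Ttr varied widely between nuclei and did so with the mitochondrial share. In AAV-STOP 55 of 62 members held a Ttr UMI and in AAV-TAU 52 of 56, against 26.3% and 30.6% of all other barcodes. Summed over the other barcodes, Ttr stood at 55.7 and 79.9 CPM. At 1500 UMIs the shares were 77.4% and 87.5% in members and 13.1% and 17.1% in oligodendrocytes, which do not express it. Per nucleus, Ttr ran from 0 to 1485 UMIs per 10000 with a median of 36.5 in AAV-STOP, and from 0 to 1382 with a median of 53.9 in AAV-TAU. Ttr and the mitochondrial share had a Spearman rho of 0.637 over 62 nuclei and 0.574 over 56. Ttr and the rule genes had a rho of 0.344 and 0.193 over all members, and of -0.064 and -0.14 over the 33 and 41 without Rbfox3. Both members of each pair share the depth of the nucleus.

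**Figure D4:**
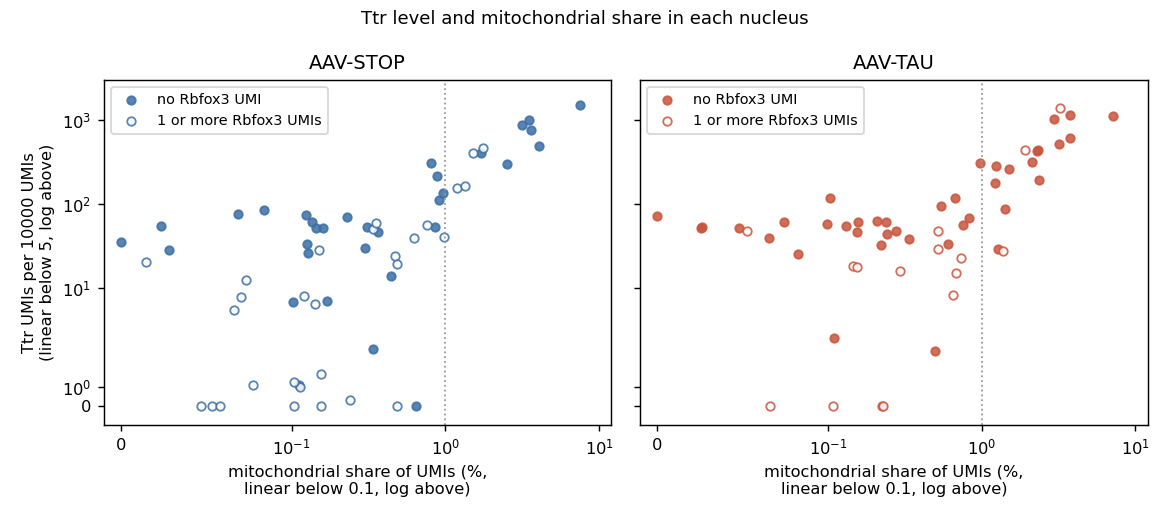
Ttr UMIs per 10000 UMIs (y axis, linear below 5 and log above) against the mitochondrial share of UMIs in percent (x axis, linear below 0.1 and log above) for each member nucleus, AAV-STOP left and AAV-TAU right, filled without and open with Rbfox3 UMIs, dotted line at 1%. The 11 AAV-STOP and 17 AAV-TAU nuclei right of the line have median Ttr levels of 460 and 424 per 10000, against 25.6 and 46.3 left of it.

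The nuclei with a mitochondrial share of 1% or more, a boundary chosen after the data were seen, also differed from the rest in other genes. Without Rbfox3 they numbered 7 in AAV-STOP (34615 UMIs) and 14 in AAV-TAU (56347 UMIs), and 26 and 27 nuclei lay under 1%. At 1% or more, 178 of 2638 genes (6.75%) were 2-fold or more higher in both libraries and 280 (10.6%) lower. Of the nuclear genes of the respiratory chain 17 of 23 were higher and none lower, and of the secreted list 8 of 13 were higher and none lower. In the motile cilium list outside the rule 0 of 22 were higher and 3 lower. Ttr stood at 76152 against 7388 CPM in AAV-STOP and 50899 against 6227 CPM in AAV-TAU. Cox8a, a subunit of cytochrome oxidase, stood at 1011 against 208 CPM and at 834 against 95.3 CPM, Dbi at 1184 against 339 CPM and at 674 against 34.6 CPM, and Igfbp2 at 1213 against 200.3 CPM and at 497 against 60.6 CPM. Htr2c of the rule and Gmnc outside it ran the other way: Htr2c stood at 4073 against 5824 CPM and at 3478 against 8523 CPM, and Gmnc at 549 against 747 CPM and at 408 against 1394 CPM.

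Under a mitochondrial share of 1% and without Rbfox3, the deep AAV-STOP nucleus again weighed on the ratios. With it, the ratio of AAV-TAU to AAV-STOP was 0.102 (0.0267 to 0.281) for Dbi, and without it 0.226 (0.0549 to 0.699), from 16 AAV-STOP and 4 AAV-TAU UMIs. For Igfbp2 it was 0.303 (0.111 to 0.716) with and 0.371 (0.130 to 0.943) without it. Both genes thus had lower levels in AAV-TAU on either side of the 1% boundary. They were named for low ratios over all members, which hold these nuclei, so this is no independent evidence. Ttr had a ratio of 0.843 (0.764 to 0.930) with that nucleus and 1.06 (0.952 to 1.18) without it. Enpp2 had 1.46 (1.32 to 1.62) and 1.28 (1.15 to 1.42), Gmnc 1.87 (1.44 to 2.43) and 1.50 (1.16 to 1.95), and Hspa8 1.38 (0.864 to 2.22) and 1.55 (0.927 to 2.65).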

How the data were processed

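The authors deposited 1 filtered matrix per library with counts, the raw UMIs per gene and barcode. Per the file headers the matrices come from Cell Ranger 8.0.1, while the submitters' processing notes name Cell Ranger 4.0, Seurat 4.4.0 and mm10. Libraries were 10x Genomics 3′ libraries of frozen hippocampal nuclei, per the labels' protocols. Each matrix lists 32285 genes. The libraries held 130252240 UMIs (AAV-STOP) and 109428807 UMIs (AAV-TAU). Removal of doublets before deposit is not given in the sources used here.

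UMIs were summed per library over the nuclei that met the rule and given as CPM. Genes with 30 or more UMIs over both libraries were compared as log2 ratios with a pseudocount of 5 CPM, and called at 2-fold. With 1 library per group no test was run. Intervals are exact: Poisson for CPM, conditional binomial for ratios, Clopper-Pearson for shares. They were tested on simulated data and cover counting error only. Doublets were marked with the scrublet method, rewritten in double precision (expected rate 0.15, 30 principal components, 2000 variable genes), and kept in the main values. Other cell types were taken by marker sums of 10 or more UMIs for oligodendrocytes and 6 or more for the others. Python 3.11.15, numpy 2.4.6, scipy 1.17.1, pandas 2.3.3 and matplotlib 3.10.9 were used. Gene positions are from GENCODE vM21 (GRCm38) and promoter windows from RefSeq (GRCm38.p6).

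The members, the 12 role lists, the 11 marker lists and the comparisons were chosen with earlier results of these data known. Genes were named by rule: the 7 rule genes with Ttr, Rbfox3 and Mapt, up to 5 genes with the most UMIs per role list, the 8 highest and 8 lowest ratios of AAV-TAU to AAV-STOP among genes at 4 times or more the other barcodes, the 12 highest ratios of members to other barcodes, and the 8 highest and 8 lowest ratios with against without Rbfox3. The ranked parts exclude Xist, Tsix, Y-linked, haemoglobin, ribosomal protein and mitochondrial genes and models with Gm or Rik names. Of the genes so named, 2 are not reported here and were not replaced, and not every other one is printed, and some list members outside the rule (such as Aqp1, Car12, Hsph1, Hspd1, Igf2, Kcnj13, Mecom, Slc12a2, Sostdc1 and the ependymal genes) were named after their values were seen.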

Additional observations from a re-analysis of the deposited data

How the results depend on the processing

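With 1 pooled library per group the spread between mice is unknown, and 118 nuclei limit every value. No paired analysis was possible because each group has 1 library. The ratio of member shares, 0.934, was 1.51 after thinning to 1500 UMIs and stayed between 0.961 and 1.28 under the other alternatives. The 432 genes 2-fold or more higher in AAV-TAU (6.68% of 6467) became 82 without Rbfox3 UMIs (3.11% of 2638), 9 when scaled by choroid plexus genes (a shift of 1.17 on the log2 scale), 239 as a mean over nuclei (3.70%), 1543 with no minimum of UMIs (8.80% of 17536) and 117 at 100 or more UMIs (5.53% of 2117). The 315 lower genes (4.87%) became 503 under the stricter rule (3 and 10 UMIs; 9.48% of 5306), 133 without Rbfox3 (5.04%), 3158 when scaled by plexus genes (48.8%), 1060 with no minimum (6.04%) and 149 at 100 or more UMIs (7.04%). Median-of-ratios scaling, a log2 shift of 0.11, gave 340 higher and 436 lower. Under alternatives chosen after seeing the data, the higher and lower counts were 121 (2.77%) and 162 (3.71%) of 4368 genes for members under 20000 UMIs, 71 (2.30%) and 81 (2.62%) of 3088 for nuclei with 20 or more rule-gene UMIs per 10000, 70 (3.80%) and 136 (7.39%) of 1840 without Rbfox3 and under 1% mitochondrial UMIs, and 64 (2.67%) and 83 (3.46%) of 2397 without Rbfox3 and under 20000 UMIs. With against without Rbfox3, the 524 higher (8.1%) and 554 lower genes (8.57%) became 86 (7.70%) and 133 (11.9%) of 1117 at 1500 UMIs, and 261 (8.45%) and 194 (6.28%) of 3088 at 20 or more rule-gene UMIs per 10000. The share of members with an Rbfox3 UMI was 46.8% (AAV-STOP) and 26.8% (AAV-TAU) unthinned, against 25.8% and 8.93%.

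Log2 ratios of named genes that were 2-fold or more apart over all members changed sign as follows. Without Rbfox3 UMIs they were -0.063 for Cfap69, -0.063 for Fap, -0.060 for Kcne2, -0.10 for Kl, -0.41 for Oca2 and -0.65 for Otx2. Scaling by plexus genes lowers all log2 ratios by a common shift of 1.17. With it the ratios were -0.11 for Cfap69, -0.16 for Itpr1, -0.12 for Oca2, -0.10 for Otx2 and -0.093 for Slc23a2. At 20 or more rule-gene UMIs per 10000 they were -0.0072 for Cfap69, -0.063 for Fap, -0.14 for Kl, -0.41 for Oca2 and -0.38 for Otx2. Under 20000 UMIs Oca2 was at -0.034. Without Rbfox3 and under 1% mitochondrial UMIs they were -0.088 for Fap, -0.49 for Oca2 and -0.30 for Otx2. Without Rbfox3 and under 20000 UMIs they were -0.23 for Cfap69, -0.30 for Fap, -0.035 for Itpr1, -0.29 for Kcne2, -0.32 for Kl, -0.19 for Lmx1a, -0.65 for Oca2, -0.80 for Otx2, -0.15 for Slc23a2, -0.071 for Spag16, -0.067 for Stk39 and -0.12 for Trpm3. Named genes under 2-fold over all members changed sign too: 18 of the 78 named genes measured without Rbfox3, 38 of 99 with scaling by plexus genes, 20 of 87 at 20 or more rule-gene UMIs per 10000, 17 of 76 without Rbfox3 and under 20000 UMIs, 17 of 72 without Rbfox3 and under 1% mitochondrial UMIs, 12 of 99 as a mean over nuclei, 10 of 92 under 20000 UMIs, and 6 or fewer under each other alternative. Apart from the common shift of a scaling, the cause was not tested.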
